A study of Homo sapiens with 8 samples.

Results

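Integrins are the receptors that hold a cell to the surrounding matrix. Each is a pair of 1 alpha and 1 beta subunit, and the pairing sets the ligand. ITGB1 is the beta subunit shared by most receptors for collagen, laminin and fibronectin, and pairs here with ITGA2 for collagen, with ITGA3 or ITGA6 for laminin, and with ITGA5 for fibronectin. ITGB4 pairs with ITGA6 alone and anchors epithelial cells to laminin. ITGAV pairs with ITGB1, ITGB3, ITGB5 or ITGB8 for ligands such as fibronectin and vitronectin, and with ITGB8 binds latent TGF-beta. These 10 genes, 5 alpha and 5 beta subunits, were picked by name out of 31461 genes in the deposited table, and all 10 were listed for both lines.

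Total RNA was taken for sequencing from human lung cancer lines labelled A549, a lung adenocarcinoma line, and H1299 (NCI-H1299), a large cell carcinoma line, all labelled as wild type. Cells of each line received either a control microRNA or miR-29a-3p, labelled as overexpressed, by transfection, and 2 libraries were made for each of the 4 groups. The stated purpose was to find genes that miR-29a-3p may target; dose and time after transfection were not given in the sources used here. MicroRNAs of the miR-29 family are known to lower many collagen and other matrix mRNAs by pairing their seed with the 3′ UTR.

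Depth, estimated from the values, was 12221310 to 15614821 fragments per library, and values are FPKM, fragments scaled by transcript length and library size. Line markers other than GPX2 lay opposite to the labels. CDKN2A, which is deleted in A549, was at 23.8 to 24.8 FPKM in the A549-labelled controls and at 0.0513 to 0.112 FPKM in the H1299-labelled ones. The summed FPKM of 8 A549 markers (aldehyde dehydrogenases, aldo-keto reductases, GPX2 and NQO1), over 9 rows since AKR1C3 has 2, was 201 to 211 under the label A549 and 1250 to 1289 under the label H1299 in controls. Line names below are therefore those of the labels. The markers other than GPX2 kept the same side in treated and control libraries of a label. With miR-29a-3p, CDKN2A was at 27.8 to 28.4 FPKM (A549-labelled) and 0.0660 to 0.0810 FPKM (H1299-labelled). GPX2 had control means of 1.77 FPKM (A549-labelled) and 1.58 FPKM (H1299-labelled), with overlapping libraries. With miR-29a-3p the GPX2 means were 1.53 and 4.23 FPKM. Markers of other cells were low: over all 8 libraries the summed FPKM of 4 endothelial markers stayed at 0.00647 to 0.160, that of 4 leukocyte markers at 0.188 to 1.52 and that of 4 fibroblast markers at 0.202 to 3.50. The leukocyte and fibroblast sums were highest in the H1299-labelled libraries with miR-29a-3p (1.46 to 1.52 and 3.42 to 3.50 FPKM). Among the leukocyte markers, LAPTM5 was the highest there, with a mean of 1.24 FPKM beside 0.113 in H1299-labelled controls. PTPRC, the defining leukocyte gene, had a mean of 0.0067 FPKM in those treated libraries and was listed at 0 in all others. Whether these signals played a part in any integrin result was not tested.

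The sequences that bear on the comparison are the microRNA and its matches in the integrin mRNAs. The mature miR-29a-3p (RefSeq, GRCh38.p14, chr7:130876748-130876769, minus strand) is shown with its seed, bases 2 to 8, in capitals.
miR-29a-3p: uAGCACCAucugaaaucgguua
The 3′ UTRs of GENCODE release 29 were searched on the sense strand for 4 exclusive matches to this seed: the 8mer TGGTGCTA, the 7mer-m8 TGGTGCT, the 7mer-A1 GGTGCTA and the 6mer GGTGCT. No 8mer was found in the longest 3′ UTR of any of the 10 genes. In 5 genes there was 1 match each, shown 5′ to 3′ as 23 bases of the mRNA with the match in capitals.
ITGB1 7mer-m8: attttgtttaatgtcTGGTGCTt
ITGA2 7mer-m8: atatttaacagctagTGGTGCTg
ITGA6 7mer-A1: gagcaacagcaaacaGGTGCTAa
ITGA5 6mer: ctgggtacttcttgaaGGTGCTg
ITGB5 6mer: tgtcaagtaagcatgaGGTGCTc
On GRCh38, these windows lie at chr10:32900733-32900755 (minus strand) for ITGB1, chr5:53092674-53092696 (plus) for ITGA2 and chr2:172505623-172505645 (plus) for ITGA6. Those of ITGA5 and ITGB5 lie at chr12:54396198-54396220 and chr3:124762804-124762826, both on the minus strand.

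Matches of these kinds were common among all genes, more so in long UTRs. An 8mer or 7mer-m8 match was held by 16.4% of 11630 tested genes with an annotated 3′ UTR. Among genes whose UTR length was within 20% of that of ITGB1 (1323 bases), 13% of 1471 had one, and for ITGA2 (4180 bases) it was 32.4% of 1058. Any of the 4 kinds was held by 34.1% of the 11630 genes. Among genes within 20% of the UTR length of ITGA6, ITGA5 and ITGB5, that share was 42.0%, 27.3% and 36.7%. The ITGB1 match begins 902 bases after the stop codon and lies in the UTR of 3 of 4 annotated coding transcripts, and that of ITGA6 begins at base 1570 of 2162 and lies in 2 of 6. The UTRs of ITGA3 (1402 bases), ITGAV (3609), ITGB3 (1612), ITGB4 (497) and ITGB8 (5757) held none of the 4 kinds, which says only that these letters are not in that window. A match is a description of the sequence and not a measured site.

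**Figure D1:**
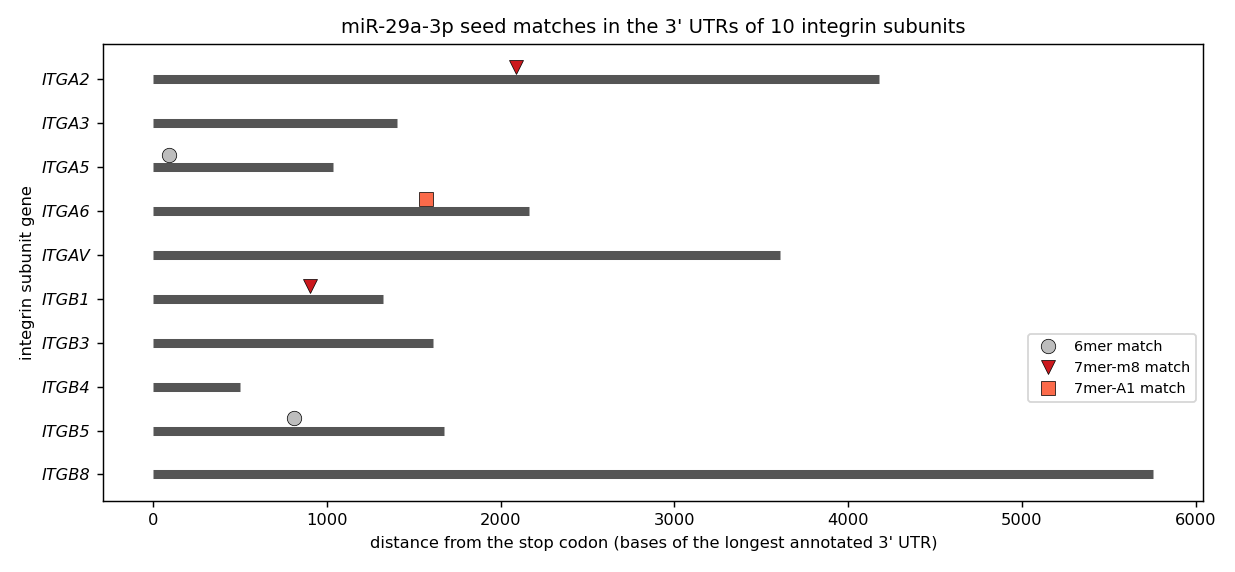
Matches to the miR-29a-3p seed (symbols) along the longest annotated 3′ UTR of each gene (bars), in bases from the stop codon. ITGB1 and ITGA2 each carry a 7mer-m8, ITGA6 a 7mer-A1, ITGA5 and ITGB5 a 6mer, and the other 5 genes none, ITGB8 with the longest UTR (5757 bases) included.

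Levels without miR-29a-3p set the scale for the changes. In the A549-labelled controls the highest subunits were ITGA3 at 73.0 ± 1.46 FPKM (SD, n = 2) and ITGB1 at 66.1 ± 5.995, followed by ITGA6 at 20.5 ± 0.37, ITGA5 at 16.4 ± 0.90, ITGAV at 13.5 ± 0.011, ITGB5 at 13.3 ± 0.73, ITGA2 at 12.9 ± 2.81, ITGB4 at 6.66 ± 0.094, ITGB3 at 4.85 ± 0.40 and ITGB8 at 0.198 ± 0.093. In this order only the neighbours ITGAV and ITGB5, and ITGB5 and ITGA2, had overlapping libraries. In the H1299-labelled controls ITGB1 came first at 218 ± 22.3 FPKM (SD, n = 2), then ITGA3 at 64.5 ± 1.67, ITGAV at 34.0 ± 10.03, ITGA2 at 33.6 ± 12.2, ITGA5 at 18.95 ± 0.11, ITGB4 at 18.7 ± 0.59, ITGB5 at 18.5 ± 0.38, ITGB3 at 5.58 ± 0.27, ITGA6 at 5.29 ± 0.049 and ITGB8 at 0.680 ± 0.069. Here the overlapping neighbours were ITGAV and ITGA2, ITGA5 and ITGB4, and ITGB4 and ITGB5.

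**Figure D2:**
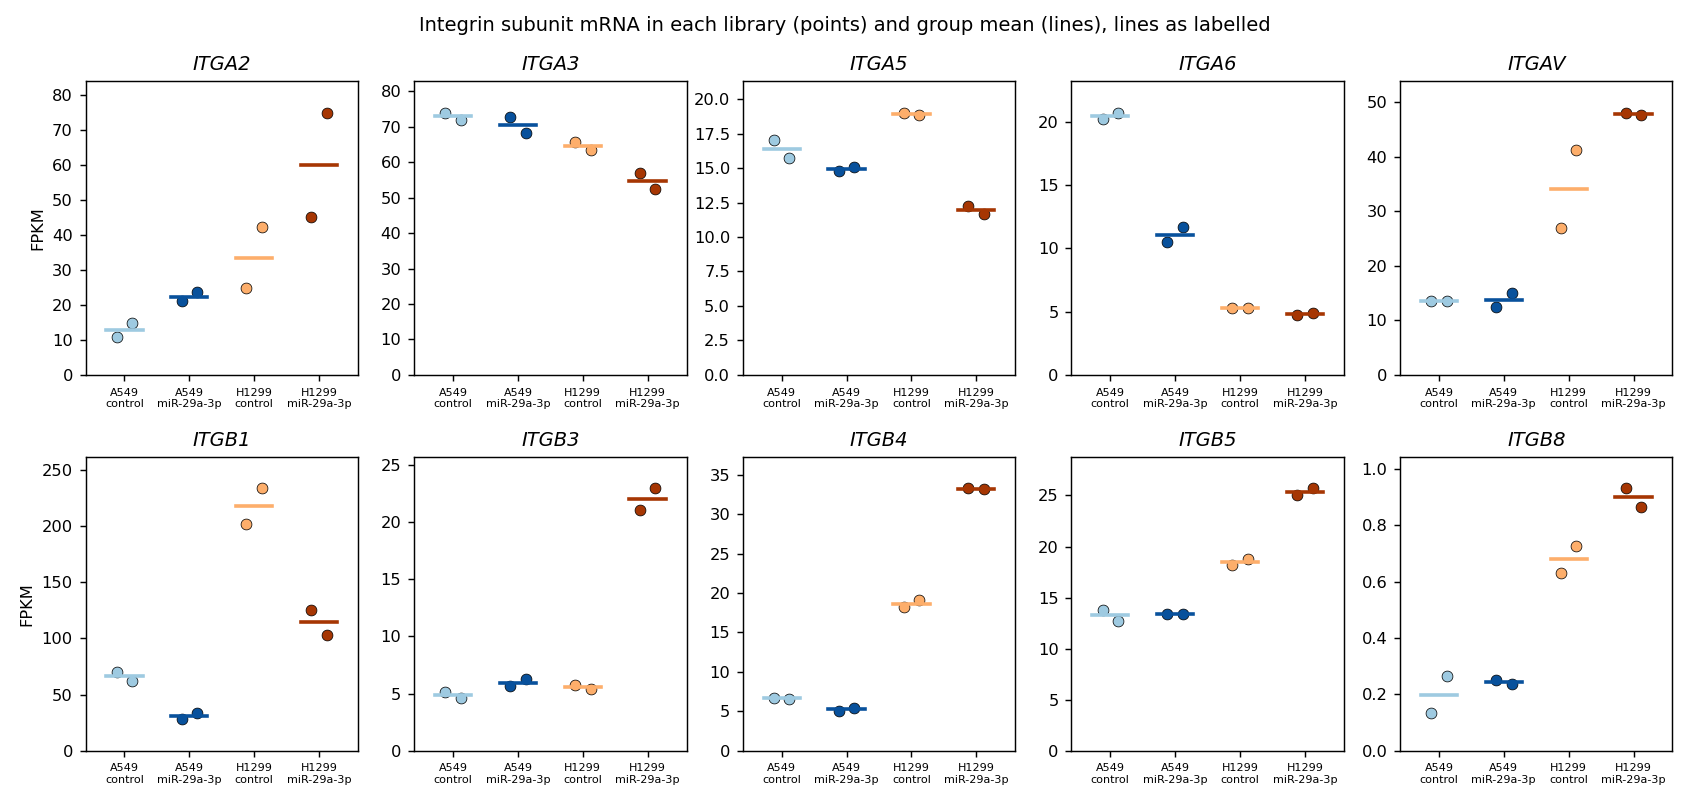
FPKM of each subunit in each of the 8 libraries (points, 2 per group) with the group mean (short lines); each panel has its own axis from 0. ITGB1 is lower after miR-29a-3p under both labels, ITGA6 lower under the label A549, and ITGB3 and ITGB4 higher under the label H1299.

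The controls of the 2 labels differed in most subunits. Tests were made with limma on log2(FPKM + 1) over all 14635 genes that reached 1 FPKM in 2 or more libraries. Calls were made where p, after Benjamini-Hochberg adjustment across those genes, was under 0.05. All log2 fold changes are on that scale, so that changes of low genes are understated. Of the 9 subunits tested, 6 were higher and 2 lower in H1299-labelled controls, where 74.8% of all tested genes were called (29.8% higher, 45.0% lower). ITGB1 was 3.30 times as high in the ratio of means (log2 fold change 1.71 ± 0.14, SE, adjusted p = 4.4e-05) and ITGB4 2.80 times (1.36 ± 0.050, adjusted p = 1.3e-06). ITGAV and ITGA2 were higher by 1.24 (adjusted p = 0.00084) and 1.28 (adjusted p = 0.0093), ITGB5 by 0.45 (adjusted p = 0.00023) and ITGA5 by 0.20 (adjusted p = 0.013). ITGA6 was lower, at 0.258 of the A549-labelled mean (-1.77 ± 0.061, adjusted p = 9.6e-07). ITGA3 was called lower by a small amount (-0.18, adjusted p = 0.027), which turned to 0.01 (adjusted p = 0.89) when libraries were rescaled by the median of ratios, and ITGB3 stood at 0.17 (adjusted p = 0.094). With the same rescaling ITGB3 was called higher (0.33, adjusted p = 0.0084), and the counts were 7 higher and 1 lower. The median of all tested genes was -0.17 in this comparison and -0.02 with that rescaling. ITGA2 was no longer called without A549 control 1 (1.08, adjusted p = 0.057), that of ITGA3 without A549 control 1, A549 control 2 or H1299 control 2 (adjusted p = 0.058 to 0.11), and that of ITGA5 without A549 control 2 or H1299 control 1 (adjusted p = 0.066 and 0.055). ITGA5 also lost its call with values rescaled to the same sum in every library (0.10, adjusted p = 0.17).

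ITGB1, the shared beta subunit, fell under both labels. Its gene (ENSG00000150093) spans chr10:32900319-33005792 on the minus strand. Under the label A549, ITGB1 stood at 70.3 and 61.9 FPKM in the controls and at 27.8 and 33.8 FPKM with miR-29a-3p. Under the label H1299 the controls were at 202 and 234 FPKM and the treated libraries at 126 and 103 FPKM. Both treated libraries lay below both controls in each line, and the lowest H1299-labelled treated library lay above all A549-labelled ones. The log2 fold change of ITGB1 was -1.08 ± 0.14 (SE, adjusted p = 0.0050, limma) in A549-labelled libraries, where the treated mean was 0.466 of control. It was -0.93 ± 0.14 (adjusted p = 0.0019) in H1299-labelled libraries, where the treated mean was 0.524 of control. The difference between the responses was -0.15, with a 95% interval of -0.63 to 0.32 (adjusted p = 0.58), which leaves room for unlike responses within that interval. Both falls were called in all 15 alternative settings, with log2 fold changes of -1.22 to -0.95 and -1.07 to -0.79. A fall in bulk RNA does not tell fewer cells that make an mRNA from less of it per cell.

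The divergent transcript ITGB1-DT starts opposite ITGB1 and shares 42 exonic bases with it, and the strand setting of the counting is not given in the sources used here. ITGB1-DT stood at 2.52 ± 0.040 FPKM (SD, n = 2) in A549-labelled controls and 3.64 ± 0.019 with miR-29a-3p, a rise of 0.40 on the log2 scale (adjusted p = 0.0061). Under the label H1299 it fell from 39.9 ± 2.15 to 11.5 ± 0.23 FPKM (-1.71, adjusted p = 9.8e-06). ITGB1-DT thus moved against ITGB1 under one label and with it under the other, and its part in the ITGB1 value was not tested. The 3 genes whose log2(FPKM + 1) followed that of ITGB1 most closely over the 8 libraries were ARPP19 (Pearson r = 0.99), LAMC1 (r = 0.99) and DSP (r = 0.99), out of 14634; the 8 libraries are 4 groups of 2, so such values are a description.

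The laminin subunit ITGA6 fell under the label A549. The gene (ENSG00000091409, chr2:172427354-172506282, plus strand) stood at 20.2 and 20.7 FPKM in A549-labelled controls and at 10.5 and 11.7 FPKM with miR-29a-3p. In H1299-labelled libraries it was at 5.26 and 5.33 FPKM in controls and at 4.77 and 4.89 FPKM with miR-29a-3p. Treated libraries were below controls under both labels, by far less under the second. ITGA6 changed by -0.83 ± 0.061 (SE, adjusted p = 0.00079) under the label A549, to 0.540 of the control mean, and its value was -0.11 ± 0.061 (adjusted p = 0.18) under the label H1299. The responses differed by -0.72 ± 0.086 (adjusted p = 0.0014). The A549-labelled fall was called in all 15 alternatives. The 3 antisense genes that share 52 to 174 exonic bases with ITGA6 were listed at no more than 0.724 FPKM in any library.

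ITGB4, the other partner of ITGA6, moved in opposite directions under the 2 labels. The gene (ENSG00000132470, chr17:75721328-75757818, plus strand) stood at 6.72 and 6.59 FPKM in A549-labelled controls and at 5.07 and 5.42 FPKM with miR-29a-3p. In H1299-labelled libraries the controls were at 18.2 and 19.1 FPKM and the treated libraries at 33.3 and 33.2 FPKM. Controls and treated libraries did not overlap in either line. ITGB4 fell by 0.30 on the log2 scale in A549-labelled libraries (SE 0.050, adjusted p = 0.013) and rose by 0.80 in H1299-labelled ones (SE 0.050, adjusted p = 6.4e-05), and the responses differed by -1.10 ± 0.071 (adjusted p = 0.00017). The fall was lost without A549 control 1 (adjusted p = 0.061), A549 control 2 (adjusted p = 0.054) or A549 miR-29a-3p 1 (adjusted p = 0.061), and when the line was fitted alone (adjusted p = 0.063), while the rise was called in all 15 alternatives.

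The other laminin subunit, ITGA3, was called lower under the label H1299 by a small amount. It stood at 74.05 and 72.0 FPKM in A549-labelled controls and at 72.7 and 68.4 FPKM with miR-29a-3p, with overlapping libraries (-0.05 ± 0.056, SE, adjusted p = 0.61). In H1299-labelled libraries ITGA3 fell from 65.7 and 63.4 FPKM to 57.0 and 52.5 FPKM, without overlap (-0.23 ± 0.056, adjusted p = 0.014). That call was lost without H1299 control 1 (adjusted p = 0.068) or H1299 miR-29a-3p 2 (adjusted p = 0.073), and the difference between the lines was 0.18 (95% interval -0.01 to 0.38, adjusted p = 0.12).

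ITGA5, the classical fibronectin subunit, fell under the label H1299. The gene (ENSG00000161638, chr12:54395261-54419460, minus strand) stood at 19.0 and 18.9 FPKM in H1299-labelled controls and at 12.3 and 11.7 FPKM with miR-29a-3p. A549-labelled libraries were at 17.0 and 15.8 FPKM in controls and at 14.8 and 15.1 FPKM with miR-29a-3p. The treated libraries were the lower ones under both labels. The log2 fold change of ITGA5 was -0.62 ± 0.053 (SE, adjusted p = 0.00020) under the label H1299, to 0.632 of the control mean, and -0.13 ± 0.053 (adjusted p = 0.17) under the label A549. The responses differed by 0.50 ± 0.076 (adjusted p = 0.0035).

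ITGB3 and ITGB5, beta partners of ITGAV, rose under the label H1299. ITGB3 (ENSG00000259207, chr17:47253846-47311816, plus strand) stood at 5.77 and 5.39 FPKM in H1299-labelled controls and at 21.1 and 23.0 FPKM with miR-29a-3p. In A549-labelled libraries it was at 5.13 and 4.57 FPKM in controls and at 5.64 and 6.26 FPKM with miR-29a-3p. The 2 H1299-labelled treated libraries stood apart from all 6 others. ITGB3 rose by 1.81 ± 0.080 (SE, adjusted p = 2.0e-05) under the label H1299, 3.94 times the control mean, and had a value of 0.25 ± 0.080 (adjusted p = 0.088) under the label A549. The difference between the responses was -1.56 ± 0.11 (adjusted p = 0.00026). AC068234.1, a gene model on the same strand that shares 2266 exonic bases with ITGB3, was listed at no more than 0.832 FPKM, and the ITGB3 values are uncertain as far as fragments were divided between them.

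ITGB5, a vitronectin receptor subunit, stood at 18.2 and 18.7 FPKM in H1299-labelled controls and at 25.1 and 25.7 FPKM with miR-29a-3p, a rise of 0.44 ± 0.051 on the log2 scale (SE, adjusted p = 0.00068). The A549-labelled libraries were at 13.8 and 12.7 FPKM in controls and at 13.4 in both treated libraries (0.02, adjusted p = 0.87). The treated H1299-labelled libraries were the highest of the 8, and the A549-labelled groups overlapped. The responses differed by -0.42 ± 0.072 (adjusted p = 0.0055). ITGB8 was the lowest member, at 0.132 and 0.264 FPKM in A549-labelled controls, 0.251 and 0.237 with miR-29a-3p, 0.631 and 0.728 in H1299-labelled controls, and 0.932 and 0.866 with miR-29a-3p. It lay under the filter on low values, with an estimated 14.8 to 126.6 fragments per library. The antisense gene AC004130.1 shares 98 exonic bases with ITGB8 and was listed at up to 0.624 FPKM, within the range of ITGB8. Its part in the ITGB8 values was not tested. Without the filter the log2 fold change of ITGB8 was 0.06 (adjusted p = 0.79) under the label A549 and 0.18 (adjusted p = 0.16) under the label H1299.

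ITGA2 and ITGAV did not pass the test under either label. ITGA2, the collagen subunit (ENSG00000164171, chr5:52989326-53094779, plus strand), stood at 10.9 and 14.9 FPKM in A549-labelled controls and at 21.0 and 23.8 FPKM with miR-29a-3p. In H1299-labelled libraries ITGA2 was at 24.9 and 42.2 FPKM in controls and at 45.3 and 75.1 FPKM with miR-29a-3p. Treated libraries lay above the controls of their own line in both cases, narrowly so under the label H1299. The log2 fold changes were 0.77 ± 0.32 (SE, adjusted p = 0.16) and 0.83 ± 0.32 (adjusted p = 0.071). With a replicate block in the limma fit both were called (adjusted p = 0.017 and 0.0025), but the labels do not say whether equal replicate numbers mark paired libraries. The replicates of H1299-labelled controls differed by 0.73 in ITGA2 on the log2(FPKM + 1) scale, a gap larger than in 98.5% of tested genes, whose median gap was 0.081. Those with miR-29a-3p differed by 0.72, larger than in 98.4%, and replicate 2 was the higher one in both groups. The H1299-labelled value of ITGA2 depended on which library was left out. It was called without control 2 (1.19, adjusted p = 0.034) or without miR-29a-3p 1 (1.18, adjusted p = 0.037), and was 0.46 without control 1 and 0.47 without miR-29a-3p 2 (adjusted p = 0.31 in both cases).

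ITGAV, the alpha subunit of the vitronectin receptors, stood at 27.0 and 41.1 FPKM in H1299-labelled controls and at 48.1 and 47.6 FPKM with miR-29a-3p. A549-labelled libraries were at 13.5 in both controls and at 12.5 and 14.9 FPKM with miR-29a-3p. The spread came from the H1299-labelled controls, and the A549-labelled groups overlapped. ITGAV had log2 fold changes of 0.51 ± 0.18 (SE, adjusted p = 0.058) under the label H1299 and 0.02 ± 0.18 (adjusted p = 0.97) under the label A549. The first was called without H1299 control 2 (0.81, adjusted p = 0.0033), with libraries rescaled by the median of ratios (adjusted p = 0.039) and with the filter set at a mean of 5 FPKM (adjusted p = 0.047). The difference between the lines (-0.49, adjusted p = 0.18) was called without H1299 control 2 (-0.79, adjusted p = 0.011). Without H1299 control 1 the ITGAV values were 0.21 under the label H1299 (adjusted p = 0.16) and -0.20 for the difference (adjusted p = 0.32).

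**Figure D3:**
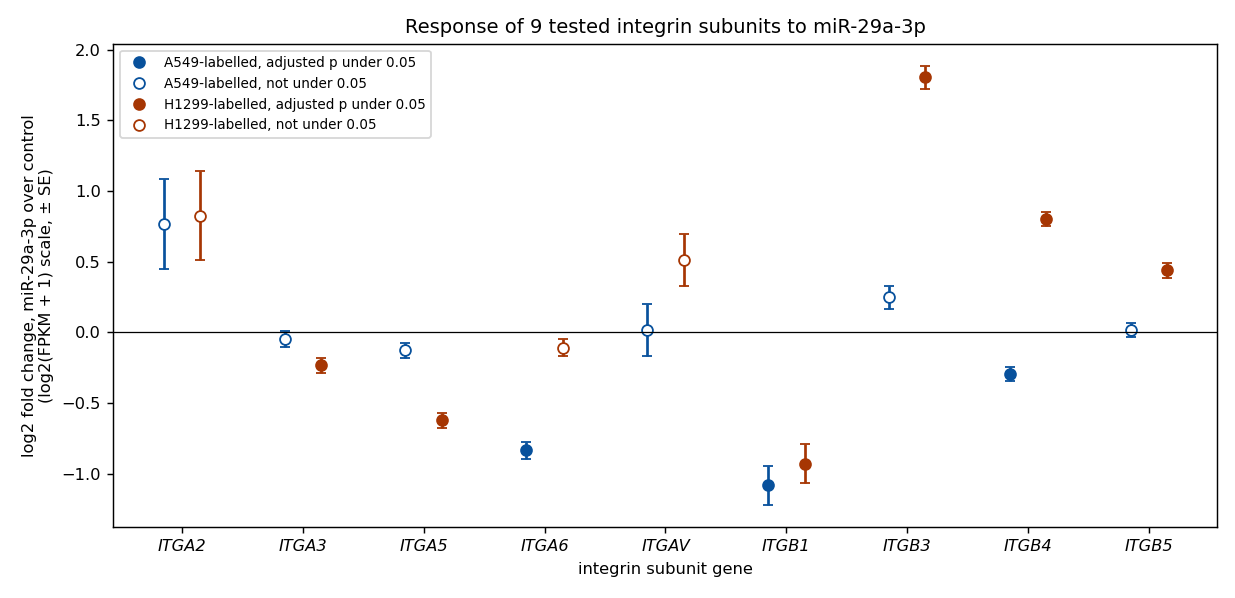
Log2 fold change of miR-29a-3p over control (points, ± SE, log2(FPKM + 1) scale) for the 9 tested subunits under each line label; filled points had an adjusted p under 0.05. ITGB1 lies near -1 under both labels (-1.08 and -0.93), ITGA6 falls under A549 (-0.83), and ITGB3 (1.81) and ITGB4 (0.80) rise under H1299.

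In counts, 0 of the 9 tested subunits rose and 3 fell (ITGB1, ITGA6 and ITGB4) under the label A549, where 16.0% of all tested genes were called (7.30% higher and 8.66% lower). The subunits' median log2 fold change was -0.05, beside 0.00 for all tested genes. Under the label H1299, 3 rose (ITGB3, ITGB4 and ITGB5) and 3 fell (ITGB1, ITGA5 and ITGA3), where 50.0% of all genes were called (25.1% higher and 24.8% lower). Their median was 0.44, beside 0.00. The responses differed between labels for 5 of 9 subunits, 1 of them with a higher value under A549 (ITGA5) and 4 with a lower one, and for 37.3% of all tested genes (18.1% higher and 19.2% lower). ITGB1 was the only member called in the same direction under both labels.

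The seed matches were set beside these values. Of the 3 genes with a match of 7 bases, ITGB1 fell under both labels, ITGA6 fell under the label A549 and ITGA2 had higher means under both without passing the test. Of the 2 genes with a 6mer, ITGA5 fell and ITGB5 rose under the label H1299. Of the 4 tested genes without a match, ITGB3 rose under H1299, ITGB4 moved both ways, ITGA3 fell under H1299 and ITGAV was not called. Over all tested genes whose strongest match was a 7mer-m8, 19.4% of 1507 were called lower under A549 and 38.1% under H1299. With a 7mer-A1 it was 19.2% and 30.9% of 349 genes, and with a 6mer 12.2% and 30.6% of 1713. For 7660 genes without a match it was 6.21% and 22.9%. The median log2 fold changes were -0.08 and -0.11 with a 7mer-m8 and 0.02 and 0.04 without a match. These classes were not matched for UTR length.

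The make-up of the beta subunit mRNA shifted with ITGB1. ITGB1 made up 73.1% and 71.8% of the summed FPKM of all 8 human beta subunits in A549-labelled controls, and 53.1% and 56.9% with miR-29a-3p. In H1299-labelled libraries it made up 82.3% and 84.0% in controls, and 60.8% and 55.2% with miR-29a-3p. All 4 treated libraries lay below all 4 controls. The share of ITGB3 went from 5.33% and 5.30% to 10.8% and 10.5% under the label A549, and from 2.35% and 1.94% to 10.2% and 12.3% under the label H1299. Under A549, ITGB3 itself was not called (0.25, adjusted p = 0.088, limma). The share of ITGB5, also not called there, went from 14.3% and 14.8% to 25.6% and 22.6%. The summed beta FPKM was 96.2 and 86.2 in A549-labelled controls and 52.4 and 59.3 with miR-29a-3p, and 246 and 279 in H1299-labelled controls and 207 and 186 with miR-29a-3p. No test was made of these shares.

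**Figure D4:**
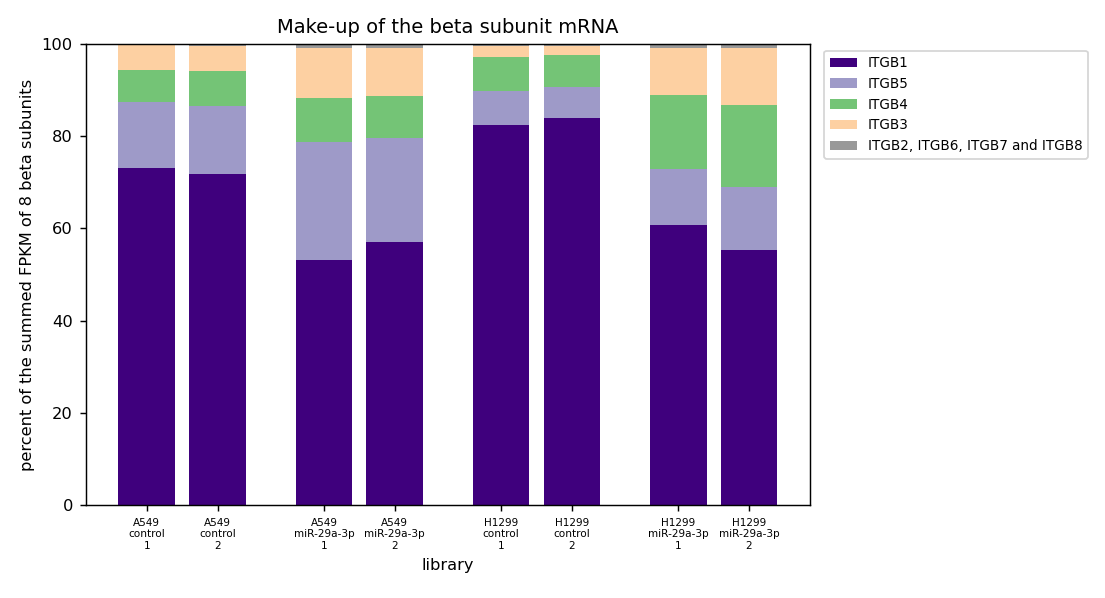
Share of each beta subunit in the summed FPKM of the 8 beta subunits, 1 bar per library. ITGB1 takes 71.8% to 84.0% in the 4 control libraries and 53.1% to 60.8% in the 4 libraries with miR-29a-3p.

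Set against the alpha subunits, ITGB1 mRNA exceeded their sum in the H1299-labelled controls and lay below it in the other 6 libraries. The FPKM of ITGB1 over the sum of the 5 alpha subunits was 0.518 and 0.452 in A549-labelled controls and 0.212 and 0.252 with miR-29a-3p. Under the label H1299 the ratio was 1.43 and 1.37 in controls and 0.751 and 0.536 with miR-29a-3p. The summed alpha FPKM itself ranged from 131 to 137 over the A549-labelled libraries and from 142 to 192 over the H1299-labelled ones, with overlapping groups in the second. These are mRNA ratios, and protein was not measured here.

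Integrin subunits outside the 10 were scarce. Of the other 16 human subunits, 4 passed the filter on low values. ITGA10, an alternative collagen subunit, fell from 1.45 ± 0.048 to 0.864 ± 0.071 FPKM (SD, n = 2) under the label A549 (-0.39, adjusted p = 0.013) and rose from 0.299 ± 0.017 to 0.894 ± 0.064 under H1299 (0.54, adjusted p = 0.00086). The ITGA10 fall was lost without A549 miR-29a-3p 1 (-0.35) and with the line fitted alone (adjusted p = 0.063), and ITGA10 did not pass the filter without A549 control 1 or without control 2. It was thus tested only through the A549-labelled controls, where it was highest, and both H1299-labelled means lay under the filter level of 1 FPKM. ITGAM, a leukocyte subunit, rose under the label H1299 from 0.748 ± 0.13 to 1.29 ± 0.068 FPKM (0.39, adjusted p = 0.025). Its control means (0.713 FPKM under A549 and 0.748 under H1299) lay under the filter level of 1 FPKM. The treated means lay above that level (1.16 and 1.29), so ITGAM was tested through the treated libraries. Its H1299-labelled call ended when low genes were kept in (adjusted p = 0.064, limma). Rescaling values to the same sum in every library also ended the call on this rise (adjusted p = 0.065). That rise was lost without H1299 control 1 (adjusted p = 0.12) or either treated library (adjusted p = 0.11 and 0.072), and its leukocyte partner ITGB2 was at 0.262 ± 0.105 FPKM in controls and 0.205 ± 0.0070 with miR-29a-3p. ITGA4 and ITGAE were not called under either label.

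Inside the cell, mRNAs of 2 proteins that bind the beta tail or its complex fell under both labels, ILK under A549 with a call that several settings ended. FERMT2, the kindlin that activates integrins, fell from 4.06 ± 0.082 to 2.40 ± 0.0042 FPKM (SD, n = 2) under the label A549 (-0.57, adjusted p = 0.0017) and from 8.19 ± 0.13 to 3.68 ± 0.15 under H1299 (-0.98, adjusted p = 4.0e-05). ILK, the scaffold that links beta subunits to actin, fell from 15.3 ± 0.19 to 12.5 ± 0.96 FPKM (-0.27, adjusted p = 0.031) and from 20.8 ± 0.78 to 12.4 ± 0.072 (-0.70, adjusted p = 0.00020). The A549-labelled ILK call was lost without A549 control 1, control 2 or miR-29a-3p 1 (adjusted p = 0.095, 0.12 and 0.11), and without either H1299-labelled treated library (adjusted p = 0.056 in both cases). It was also lost when low genes were kept in (adjusted p = 0.056), with the line fitted alone (adjusted p = 0.083) and with a replicate block (adjusted p = 0.061). Both responses differed between the labels (FERMT2 0.40, adjusted p = 0.0077, and ILK 0.43, adjusted p = 0.0099). TLN1, the talin that completes activation, was at 53.9 ± 1.68 and 56.0 ± 0.58 FPKM under the label A549 (adjusted p = 0.42) and was called higher by 0.14 under H1299 (adjusted p = 0.030), a call lost without any of the 4 H1299-labelled libraries (adjusted p = 0.062 to 0.12) and with values rescaled to the same sum in every library (0.06, adjusted p = 0.37).

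Over the list of 43 intracellular adhesion genes, 41 were tested; of all tested genes 7.30% were called higher and 8.66% lower under A549, and 25.1% and 24.8% under H1299. Under the label A549, 1 rose and 2 fell, with a median of -0.04. The 1 that rose was LPXN, a paxillin relative (0.39, adjusted p = 0.015), and leaving out any 1 A549-labelled library ended its call (adjusted p = 0.053 to 0.075). Without A549 control 1 or without control 2, 0 genes of the list were higher and 1 lower, with LPXN and ILK no longer called. Under the label H1299, 16 rose and 5 fell, with a median of 0.06, and LPXN was among those that fell (-0.36, adjusted p = 0.0056). TNS4, a tensin that binds beta tails, rose from 76.3 ± 3.51 to 148 ± 3.81 FPKM (0.95, adjusted p = 5.5e-05) and FERMT1, the epithelial kindlin, from 2.89 ± 0.21 to 6.29 ± 2.20 (0.87, adjusted p = 0.0087). TNS4 was at 1.23 ± 0.088 FPKM in A549-labelled controls.

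Membrane partners moved in both directions. Of 14 tested, 5 rose and 3 fell under the label A549, and 7 rose and 3 fell under H1299, with medians of 0.04 and 0.29, where 16.0% and 50.0% of all tested genes were called. Without A549 control 2 or without A549 miR-29a-3p 1, the first count was 2 higher and 3 lower. TSPAN4, a tetraspanin, fell under both labels, from 13.8 ± 0.30 to 7.71 ± 0.099 FPKM and from 20.6 ± 1.03 to 6.95 ± 0.18 (-0.77, adjusted p = 0.00071, and -1.44, adjusted p = 1.2e-05). CAV1, which organises caveolae, fell by 0.84 under A549 (adjusted p = 0.00035) and rose by 0.23 under H1299 (adjusted p = 0.0069). PLAUR, the urokinase receptor that binds integrins, rose by 0.57 (adjusted p = 0.0083) and 0.56 (adjusted p = 0.0021), the first lost without A549 control 2 (adjusted p = 0.052). SLC3A2, an amino acid transporter chain that also binds beta tails, rose by 0.40 under A549 (adjusted p = 0.0086), a call lost without A549 miR-29a-3p 1 (adjusted p = 0.050), and fell by 2.10 under H1299 (adjusted p = 9.8e-06). The tetraspanins CD82 and CD81 rose under H1299 by 2.18 (adjusted p = 9.8e-06) and 0.86 (adjusted p = 0.00041).

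Among 36 matrix ligands of integrins, 27 were tested. Under the label A549, 1 rose and 12 fell, with a median of -0.17, beside 7.30% higher and 8.66% lower among all tested genes. Under H1299, 10 rose and 11 fell, with a median of 0.00, beside 25.1% and 24.8%. FBN1, the fibrillin that binds ITGAV and ITGA5 receptors, fell from 11.98 ± 0.62 to 4.57 ± 0.0040 FPKM under A549 (-1.22, adjusted p = 0.00022) and by 0.89 under H1299 (adjusted p = 6.8e-05). THBS1, a thrombospondin, fell by 1.21 under A549 (adjusted p = 0.00079) and rose by 1.06 under H1299 (adjusted p = 0.00017). The single ligand that rose under A549 was LAMB3, a laminin chain bound by ITGA6 and ITGA3 receptors (0.23, adjusted p = 0.047), and its call was lost without any of the 8 libraries (adjusted p = 0.058 to 0.18). Under H1299 the lowest were COL5A2, a fibrillar collagen chain (-2.71, adjusted p = 2.2e-05), and CCN1, a ligand of ITGAV receptors (-2.21, adjusted p = 2.3e-06), and the highest were MFGE8, a ligand of ITGAV with ITGB3 or ITGB5 (1.22, adjusted p = 0.0011), and THBS1. COL5A2 was lower under A549 too, at -1.23 to -0.92 when single libraries were left out. CCN1 stayed at -0.04 to -0.02 there and MFGE8 at -0.01 to 0.34. Of the other collagen receptors 2 of 5 were tested, 0 were called under A549 and 1 under H1299, MRC2, which takes up collagen (0.64, adjusted p = 0.00015).

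**Figure D5:**
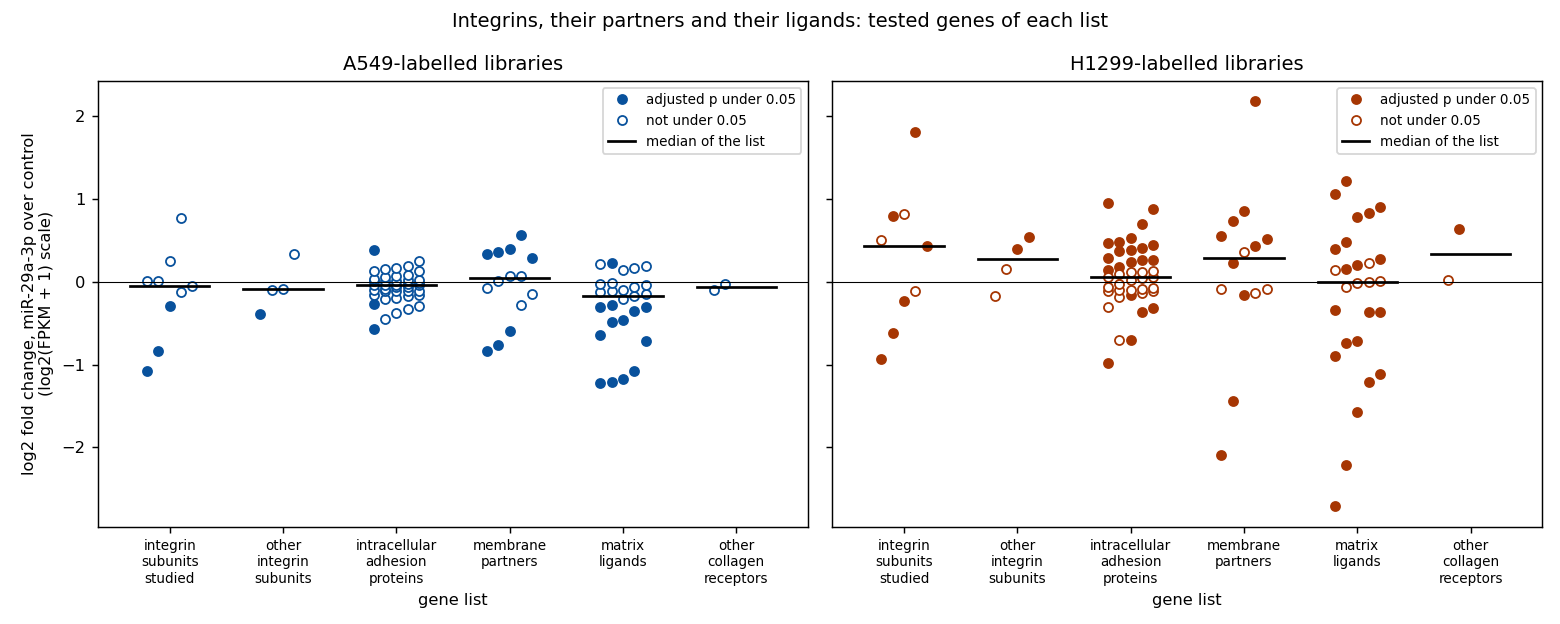
Log2 fold change of miR-29a-3p over control for each tested gene of 6 lists (points; filled where the adjusted p was under 0.05) with the list median (black line), under each line label. Under A549 the matrix ligands have 12 called genes below 0 and 1 above, and under H1299 the intracellular adhesion proteins have 16 above and 5 below.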

How the data were processed

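Per the labels' protocols, TRIzol was used for extraction and a VAHTS kit for the libraries. FPKM values of genes, 1 column for each library, are what the authors deposited, per the file headers. StringTie and GRCh38 are named in the submitters' processing notes, and versions, aligner, annotation release and strand setting were not given in the sources used here. Genes absent from a line's block counted as 0 there.

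FPKM values were used without rescaling. limma (3.58.1, R 4.3.3) was fitted to log2(FPKM + 1) with 4 group means and a trended prior, on 14635 genes, with 4 residual degrees of freedom. The fit was tested on simulated data. Depth was estimated from the smallest FPKM steps of genes with 1 annotated transcript, whose values then came out whole within 0.02 for 87.1% to 93.1%; genes with several transcripts do not give whole fragments, so no count test was made. Replicates differed by more than sampling noise (chi-square per degree of freedom 2.63 to 2.77), and the labels do not say that they were separate cultures, and the p-values then rest on a spread between libraries that may be technical. Alternatives were a pseudocount of 0.1, no filter or a mean of 5 FPKM, 2 rescalings, each line alone, a replicate block and each library left out.

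All 10 subunits matched GENCODE 29 by identifier and name. The longest 3′ UTR of a coding transcript was searched. The members and lists were chosen with earlier results of these data known. All 10 members are named, and from each list the 2 lowest and 2 highest called genes per line, with TLN1, FERMT2 and ILK. ITGB1-DT and AC068234.1 were added for their shared exons, and settings for genes outside the 10 were chosen after seeing the data.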

Additional observations from a re-analysis of the deposited data

Results flagged for a closer look

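The response to miR-29a-3p differed between the line labels, by the test of the difference itself, for 5 of the 9 tested subunits. Of all tested genes, 37.3% were called in that test (18.1% higher and 19.2% lower). As A549-labelled minus H1299-labelled log2 fold changes, the differences were 0.50 for ITGA5 (adjusted p = 0.0035, limma), -0.72 for ITGA6 (adjusted p = 0.0014), -1.56 for ITGB3 (adjusted p = 0.00026), -1.10 for ITGB4 (adjusted p = 0.00017) and -0.42 for ITGB5 (adjusted p = 0.0055). These 5 were called in all 14 alternative settings. In each, 2 libraries stood on each side of each contrast, and the labels of the lines lie opposite to the line markers other than GPX2.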

How the results depend on the processing

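Of 531 recomputed log2 fold changes of the 9 tested subunits, 506 stayed on their side of the threshold, 14 lost a call, 10 gained one and 1 called value turned: ITGA3 between the controls went from -0.18 to 0.0094 when libraries were rescaled by the median of ratios. Among the 506, 7 values that were not called changed sign: 5 of the ITGA2 difference, and 1 each of ITGAV and ITGB5 under A549. No setting moved the number of subunits called by over 1.5 times; without single libraries it was 2 to 3 under A549, 5 to 8 under H1299, 5 to 6 for the difference and 6 to 8 between controls. The labels do not say whether equal replicate numbers mark paired libraries. Deviations of same-numbered libraries correlated at 0.02 (A549) and -0.01 (H1299) over 14635 genes, which cannot settle pairing for a single gene such as ITGA2. A replicate block gave 3, 7, 5 and 8 called subunits in these comparisons, beside 3, 6, 5 and 8 without it, and 1261 called genes in A549-labelled libraries beside 2336. With it ITGA2 was called under both labels (adjusted p = 0.017 for A549 and 0.0025 for H1299) and ITGB4 was not under A549 (adjusted p = 0.054). Outside the 10, the block also ended the A549 calls of ITGA10, ILK, LPXN and LAMB3 (adjusted p = 0.053, 0.061, 0.063 and 0.10, limma). Under H1299 it ended that of TLN1 (adjusted p = 0.053). Those 2336 became 1045 to 1196 without any 1 A549-labelled library and 1365 with the line fitted alone, and with the filter at a mean of 5 FPKM the counts of 7312 (H1299), 5464 (difference) and 10941 (controls) became 3773, 2984 and 4923 with 6085 genes tested. Among the 10, only ITGB8 lay under the filter on low values.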
